A study of Mus musculus with 24 samples.

Results

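The genes described here are 55 genes of mitosis, the division of a cell's copied chromosomes between daughter cells. They were chosen by symbol from a list of mitotic kinases, cyclins, kinetochore and kinesin genes, cytokinesis genes and condensins. All 55 listed symbols were present among the 26253 genes of the deposited count table, and all 55 were among the 16153 genes that passed a filter on low counts. The study sequenced RNA from lung tissue of mice on a control diet or a diet labelled docosahexaenoic acid (DHA), an omega-3 fatty acid. The mice were exposed to filtered air or to ozone, a gas that oxidises and injures airway epithelium. The 4 groups were control diet with filtered air, control diet with ozone, DHA diet with filtered air and DHA diet with ozone, with 6 libraries each and 24 in all. Strain, sex, age, ozone dose and the time from exposure to sampling are not given in the labels used here. The labels also do not say whether each library came from a separate mouse, so the p-values rest on variation among libraries, which may be technical.

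A dividing cell makes most of these transcripts only around G2 and mitosis and has few of them at rest. Cyclin-dependent kinase 1 with its B-type cyclins starts mitosis, kinetochores tie each chromosome to the spindle, a checkpoint holds the cell until all are attached, and the anaphase-promoting complex then triggers separation and exit. The resting adult lung holds few cycling cells. Epithelial, endothelial and resident macrophage cells can divide after injury, and RNA of the whole tissue does not say which of them carried a transcript.

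Total counts ran from 18053493 to 26225630 per library. The lung label was met by the surfactant gene Sftpc, a defining transcript of alveolar type 2 cells, at 15432 to 27525 CPM (counts scaled to equal library size, in parts per 1e+06) over the 24 libraries. Retnla, a gene outside the list, stood at 38.2 to 110 CPM in the 12 air libraries and at 232 to 1385 CPM in the 12 ozone libraries. Genes were chosen here with earlier results of these data known, so this describes the labelled groups and does not test the labels. Within the DHA-diet ozone group, libraries 1 and 6 were the highest and the lowest for the mitosis genes. Library 1 was the highest of all 24 libraries for 54 of the 55 genes, and library 6 was the lowest of its group for 49. Their Retnla levels, 563 CPM in library 1 and 232 CPM in library 6, were above those of every air library. Library 1 also had the lowest sums of all 24 libraries for lung epithelium markers (89206 CPM) and for club and basal airway markers (57969 CPM). Most of the latter sum was the club cell gene Scgb1a1, at 53931 CPM, where the 3 other groups had at least 81352 CPM. The mean log2 CPM of the club and basal airway markers was 7.12 in library 1, within its group's range of 6.78 to 7.25. That list was therefore not low as a whole. For all 55 genes together, the DHA-diet count of called genes and the median change are given with and without both libraries.

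After ozone most of the mitosis genes rose on both diets. The 6 DHA-diet ozone libraries had a wider spread than the control-diet ones, also without their extremes, libraries 1 and 6. On the control diet 45 of 55 were called higher by edgeR's quasi-likelihood test at a Benjamini-Hochberg adjusted p under 0.05 over all 16153 genes, and 0 were lower, where 8.93% of all genes tested were called higher and 7.87% lower. Their median log2 fold change was 0.92, a 1.89-fold rise, against a median of −0.01 over all genes. On the DHA diet 50 of 55 were called higher and 0 lower, where 12.7% of all genes were called higher and 11% lower, and the median log2 fold change was 1.14, a 2.21-fold rise, against −0.01 over all genes. Rises of at least 2-fold were called for 25 of the genes on the control diet, where 0.644% of all genes had one, and for 39 on the DHA diet, where 1.03% had one. Between diets 0 of 55 genes were called, either in air or after ozone. In bulk tissue, more dividing cells and more of these transcripts per cell cannot be told apart.

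The same 43 genes were called on both diets. Another 7 were called on the DHA diet alone (Cdc25c, Bub1b, Espl1, Sgo1, Knl1, Kif20a and Foxm1), 2 on the control diet alone (Ndc80 and Kif15) and 3 on neither (Pttg1, Cenpa and Ncaph). Both calls made on the control diet alone ended without control-diet air libraries 1 to 3, which ended 14 of the 45 control-diet calls in all. Of the calls made on the DHA diet alone, those of Bub1b, Cdc25c, Espl1 and Foxm1 ended without DHA-diet ozone library 1. None of the 55 genes was called for the difference of its ozone changes between diets, so a call on 1 diet only does not show a difference between diets.

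**Figure D1:**
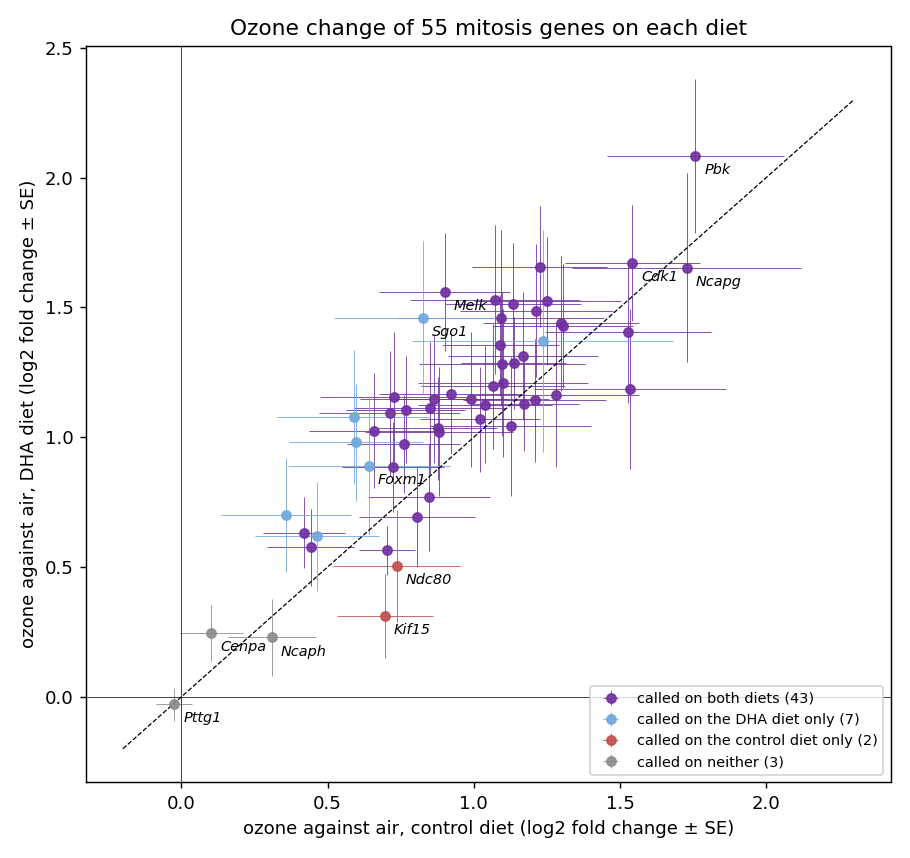
Each point is 1 of the 55 mitosis genes, with its log2 fold change of ozone against air on the control diet (x axis) and on the DHA diet (y axis), bars of ± 1 SE, and colour by the diets on which it was called at an adjusted p under 0.05. The dashed line marks equal change, and 43 genes called on both diets lie to the upper right while Pttg1 lies at 0 on both axes.

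The proximal promoters are shown because the genes moved as a block and because many mitotic promoters are known to carry a short element, the cell cycle genes homology region (CHR), that MuvB complexes bind, often together with CCAAT boxes bound by NF-Y. RefSeq promoter sequences, 250 bases before to 50 after the transcript start, were at hand for 45 of the 55 genes on the GRCm38.p6 build, an older build than the mm39 of the counts. Cdk1 and Cdca3 had the largest ozone rises on the DHA diet among the genes whose promoter holds a CHR, and Melk is the gene without one that rose most. Sequences run 5′ to 3′ on the gene's strand, with TTTGAA or TTCGAA (CHR) and CCAAT or its complement ATTGG in capitals. The 3 windows are chr10:69352863-69353162, minus strand, for Cdk1, chr6:124829926-124830225, plus strand, for Cdca3, and chr4:44300667-44300966, plus strand, for Melk.

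Cdk1: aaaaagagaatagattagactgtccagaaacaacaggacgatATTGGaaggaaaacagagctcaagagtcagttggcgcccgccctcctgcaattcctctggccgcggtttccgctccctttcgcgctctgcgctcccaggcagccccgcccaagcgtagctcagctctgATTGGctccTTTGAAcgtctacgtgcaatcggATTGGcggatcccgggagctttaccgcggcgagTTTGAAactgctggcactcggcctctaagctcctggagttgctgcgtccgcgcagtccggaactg

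Cdca3: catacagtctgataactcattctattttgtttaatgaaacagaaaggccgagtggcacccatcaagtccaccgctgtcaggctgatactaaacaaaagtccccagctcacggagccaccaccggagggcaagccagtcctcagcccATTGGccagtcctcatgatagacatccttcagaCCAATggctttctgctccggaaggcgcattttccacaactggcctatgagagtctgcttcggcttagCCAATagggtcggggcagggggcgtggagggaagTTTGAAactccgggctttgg

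Melk: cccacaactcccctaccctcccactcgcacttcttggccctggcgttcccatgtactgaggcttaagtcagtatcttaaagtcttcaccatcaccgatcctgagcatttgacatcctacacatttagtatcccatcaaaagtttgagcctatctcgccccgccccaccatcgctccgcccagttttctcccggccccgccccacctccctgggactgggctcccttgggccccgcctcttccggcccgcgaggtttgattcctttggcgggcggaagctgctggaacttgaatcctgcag

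In the Cdk1 promoter TTTGAA begins 71 and 15 bases before the start, with ATTGG at 208, 80 and 48 bases before it. Cdca3 has 1 TTTGAA, 31 bases after the start, and CCAAT letters at 104, 71 and 4 bases before it. The Melk window holds none of these letters. Cdk1 also has E2F letters, left in lower case, at 178 and 130 bases before the start. Over the 45 genes, TTTGAA or TTCGAA on either strand occurred in 36 (80%), against 21.7% of 27025 genes with a RefSeq promoter of the same length. A gene was counted if any of its promoters held the letters. Within 50 bases of the start the CHR letters occurred in 33 (73.3%), against 6.12%. CCAAT on either strand occurred in 32 (71.1%), against 41.1% of all genes with a promoter, and both motifs in 30 (66.7%), against 8.61%. E2F letters, which were TTGGCGC, or TTCCCGC, or else TTCGCGC, or finally TTGCCGC, on either strand, occurred in 8 (17.8%), against 10.9%. The 9 genes without CHR letters in the window were Ccnb1, Mad2l1, Melk, Birc5, Cenpe, Nuf2, Nusap1, Pttg1 and Ncaph. Their median log2 fold change after ozone was 0.90 on the control diet and 1.04 on the DHA diet, beside 0.88 and 1.13 for the 36 genes that hold them. A match of letters describes the window only, and binding was not measured.

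Among the cyclins and their kinase, 5 of 6 genes were called higher on the control diet and 6 of 6 on the DHA diet. In this and later passages 3 CPM values are the lowest, median and highest of the 6 libraries of a group. Cdk1 (chromosome 10, 69170978 to 69188743, mm39), the kinase that drives entry into mitosis, stood at 2.84, 4.16 and 4.88 CPM in control-diet air and 8.92, 12.5 and 15 CPM in control-diet ozone. DHA-diet levels were 3.57, 4.66 and 6.96 CPM in air and 7.59, 12.7 and 27.7 CPM in ozone. Every ozone library was above every air library on both diets, and DHA-diet ozone library 1 was the highest of all. The log2 fold change was 1.54 ± 0.23 on the control diet (edgeR quasi-likelihood, adjusted p = 7.65e-05) and 1.67 ± 0.22 on the DHA diet (adjusted p = 1.19e-05).

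Cdca3, a trigger of mitotic entry that helps degrade the kinase Wee1, went from 2.53, 3.02 and 4.23 CPM in air to 6.35, 7.19 and 8.97 CPM in ozone on the control diet. From DHA-diet air to ozone it went from 2.20, 2.57 and 3.68 to 4.27, 7.81 and 15.3 CPM, again with no overlap of the groups. Its fitted rises were 2.34-fold and 3.15-fold. Ccnb2, a B-type cyclin, had the smallest DHA-diet rise of the 6, at 2.10-fold (3.15, 3.60 and 4.28 CPM in air, 4.71, 7.04 and 13.3 CPM in ozone), and its groups did not overlap on either diet. Cdc25c, the phosphatase that activates CDK1, was a low transcript, at 0.251, 0.336 and 0.977 CPM in control-diet air and 0.585, 1.07 and 1.91 CPM in control-diet ozone. Its groups overlapped on both diets, and the control-diet change was not called (log2 fold change 1.24 ± 0.44, adjusted p = 0.0556). The DHA-diet rise of 1.37 ± 0.43 (adjusted p = 0.0202) was not called without DHA-diet ozone library 1, at 0.97 (adjusted p = 0.0910), while the control-diet change was then called (adjusted p = 0.0325).

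All 7 mitotic kinases rose on both diets, with median log2 fold changes of 1.07 and 1.35. Pbk (chromosome 14, 66043360 to 66055272), a kinase active in mitotic cells, had the largest change of the 55 genes on each diet. It stood at 1.42, 2.11 and 2.44 CPM in control-diet air and 5.18, 7.26 and 8.19 CPM in control-diet ozone, with no overlap. DHA-diet levels were 1.25, 2.02 and 3.46 CPM in air and 2.66, 7.70 and 18.2 CPM in ozone. The lowest of these DHA-diet ozone values, in library 6, fell inside the air range, and the other 5 lay above it. Log2 fold changes were 1.76 ± 0.30 (adjusted p = 2.88e-04) and 2.08 ± 0.30 (adjusted p = 2.14e-05) in the same test.

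Melk, a kinase of proliferating cells, went from 1.81, 3.04 and 3.95 to 4.80, 5.45 and 7.10 CPM on the control diet. From DHA-diet air to DHA-diet ozone it went from 1.83, 2.18 and 3.65 to 3.23, 6.80 and 11.4 CPM. Control-diet ozone libraries were all above control-diet air, and the DHA-diet groups met at library 6. Melk had the smallest unadjusted p of the 55 for a difference of ozone change between diets (interaction 0.66 ± 0.32 on the log2 scale), which did not pass adjustment (edgeR adjusted p = 0.813). Bub1, a checkpoint kinase at the kinetochore, had the smallest kinase change on the DHA diet, 1.02 ± 0.25 (1.96, 2.51 and 3.28 CPM in air, 2.83, 4.30 and 10.4 CPM in ozone), and its groups overlapped on both diets. The change of Bub1 was 0.69 without ozone library 1 and 0.67 without libraries 1 and 2, still called.

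Of the checkpoint and anaphase genes, 3 of 7 were called on the control diet and 6 of 7 on the DHA diet, with median log2 fold changes of 0.46 and 0.70. Ube2c, the ubiquitin-conjugating enzyme that serves the anaphase-promoting complex, stood at 2.49, 4.56 and 5.93 CPM in control-diet air and 5.72, 10.4 and 13.1 CPM in control-diet ozone. In DHA-diet libraries it stood at 4.15, 5.24 and 6.50 CPM in air and 5.32, 11 and 20.5 CPM in ozone. The ranges overlapped slightly on both diets, and the rises were 2.31-fold (edgeR adjusted p = 0.00131) and 2.21-fold (adjusted p = 9.94e-04). Sgo1, the protector of centromeric cohesion, was called on the DHA diet only, at 1.46 ± 0.30 (0.373, 0.863 and 1.09 CPM in air, 1.18, 2.05 and 4.35 CPM in ozone, no overlap). Its control-diet change was 0.83 ± 0.30 (adjusted p = 0.0598), which was called without DHA-diet ozone library 1 (adjusted p = 0.0277).

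Bub1b, which encodes the checkpoint protein BubR1, and Espl1, which encodes separase, the protease that cuts cohesin, were called on the DHA diet only. Bub1b was at 4.36, 6.38 and 8.28 CPM in DHA-diet air and 5.97, 8.74 and 18 CPM in DHA-diet ozone, and Espl1 at 2.07, 3.37 and 4.73 and 3.30, 4.75 and 9.44 CPM. Both pairs of ranges overlapped, and both DHA-diet calls ended without ozone library 1: Bub1b went from 0.62 ± 0.21 to 0.35 (edgeR adjusted p = 0.157) and Espl1 from 0.70 ± 0.22 to 0.48 (adjusted p = 0.0860). The Bub1b call also ended without DHA-diet air library 2, 3, 4 or 6 or ozone library 3, and the Espl1 call without DHA-diet air library 2 or ozone library 3. Their control-diet changes were 0.46 ± 0.21 and 0.36 ± 0.22 and were not called (adjusted p = 0.138 and 0.287). Mad2l1, a core checkpoint protein, was called on both diets with small changes (0.42 ± 0.14 and 0.63 ± 0.14). Its control-diet call ended when any 1 of 5 control-diet air libraries or 4 control-diet ozone libraries was left out.

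Pttg1 (chromosome 11, 43311071 to 43317079), securin, the inhibitor of separase, was the 1 member with fitted changes below 0 on both diets, neither of them called. It stood at 45.8, 49.3 and 56.1 CPM in control-diet air, 45.1, 49.5 and 51.8 in control-diet ozone, 42.8, 45.6 and 47 in DHA-diet air and 34.8, 45.9 and 47.9 CPM in DHA-diet ozone. Its ranges overlapped between air and ozone on both diets, and the lowest value of all 24 libraries was in DHA-diet ozone library 1, where the other 54 members were highest. Log2 fold changes were −0.02 ± 0.06 (edgeR adjusted p = 0.832) and −0.03 ± 0.06 (adjusted p = 0.781).

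**Figure D2:**
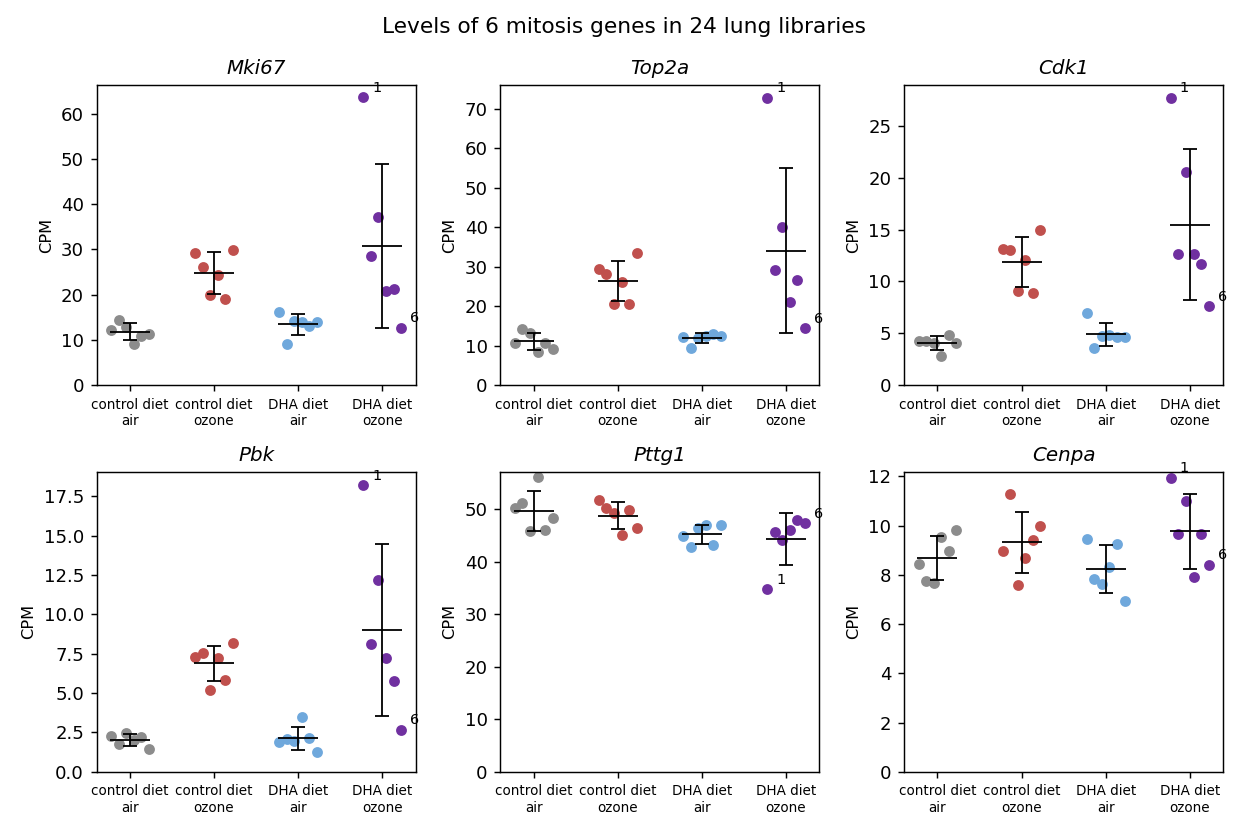
Levels in CPM (y axis, linear from 0) of 6 members in the 4 groups (x axis), with 1 point per library, the mean as a bar and ± 1 SD as whiskers, and DHA-diet ozone libraries 1 and 6 numbered. Mki67, Top2a, Cdk1 and Pbk were higher after ozone on both diets with library 1 at the top, while Pttg1 and Cenpa stayed near their air ranges.

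The 3 genes of the chromosomal passenger complex, which corrects faulty attachments and steers cytokinesis together with Aurora B, were called higher on both diets. Birc5 (survivin) went from 2.52, 3.01 and 3.68 to 6.26, 7.23 and 9.87 CPM on the control diet, and Cdca8 (borealin) from 1.55, 2.80 and 3.57 to 4.55, 6.62 and 8.35 CPM. Neither pair of ranges overlapped. In DHA-diet ozone, Birc5 stood at 3.10, 7.32 and 13.8 CPM against 1.92, 3.17 and 3.91 in air, and Cdca8 at 3.10, 6.96 and 14.3 against 2.07, 3.00 and 3.78. Here both pairs overlapped at library 6, and log2 fold changes were 1.43 ± 0.24 and 1.44 ± 0.26 (edgeR adjusted p = 1.22e-04 and 2.86e-04). Incenp, the scaffold of the complex, changed less, by 0.44 ± 0.15 on the control diet (adjusted p = 0.0418) and 0.58 ± 0.15 on the DHA diet (adjusted p = 0.00561). The control-diet call of Incenp ended when any 1 of the 6 control-diet air libraries, control-diet ozone library 2, 4, 5 or 6, or DHA-diet air library 5 was left out, and its DHA-diet change was 0.34 without ozone library 1.

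Of 8 centromere and kinetochore genes, 6 were called on each diet. Nuf2 and Spc24, subunits of the NDC80 complex that grips microtubules, rose most. Spc24 stood at 3.56, 3.72 and 4.73 CPM in control-diet air and 6.53, 7.91 and 11 CPM in control-diet ozone. With DHA its levels were 3.38, 4.26 and 5.05 CPM in air and 6.80, 9.04 and 17 CPM in ozone. The groups were apart on both diets, with log2 fold changes of 1.14 ± 0.18 (edgeR adjusted p = 1.28e-04) and 1.29 ± 0.18 (adjusted p = 1.42e-05). Nuf2 changed by 1.17 ± 0.26 and 1.31 ± 0.25. Ndc80 itself, the subunit that names the complex, was called on the control diet (1.66, 1.98 and 2.16 CPM in air, 2.36, 3.32 and 3.86 in ozone, 0.74 ± 0.22, adjusted p = 0.0205). Its DHA-diet change was 0.50 ± 0.21 (adjusted p = 0.0884), and 0.23 without ozone library 1. Leaving out DHA-diet air library 1, the highest of its group for Ndc80, or DHA-diet ozone library 5 gave a call. The control-diet call ended without control-diet air libraries 1 to 3 (0.78, adjusted p = 0.0829) and without libraries 4 to 6 (0.68, adjusted p = 0.0987).

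Knl1, the outer kinetochore scaffold, was called on the DHA diet (1.20, 1.63 and 2.44 CPM in air, 1.74, 2.86 and 6.63 CPM in ozone, log2 fold change 1.08 ± 0.26, edgeR adjusted p = 0.00334) and not on the control diet (0.59 ± 0.26, adjusted p = 0.124). Cenpa (chromosome 5, 30824230 to 30832182), the histone H3 variant that marks centromeres, was at 7.66, 8.70 and 9.81 CPM in control-diet air and 7.61, 9.20 and 11.3 CPM in control-diet ozone. Its DHA-diet levels were 6.94, 8.07 and 9.46 and 7.93, 9.67 and 11.9 CPM. Air and ozone ranges overlapped, and the changes were 0.10 ± 0.11 (adjusted p = 0.562) and 0.25 ± 0.11 (adjusted p = 0.0983). The DHA-diet change of Cenpa was called, at an adjusted p of 0.0492, when ozone library 4 was left out.

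Kinesin motors move and cross-link spindle microtubules, and 7 of 8 were called higher on each diet. The control-diet call of Kif22 ended without control-diet air library 1, 2, 3, 4 or 5. It also ended without control-diet ozone library 1, 2, 4 or 6 or DHA-diet air library 5. Kif2c, which strips tubulin from microtubule ends at the kinetochore, stood at 1.24, 1.50 and 1.93 CPM in control-diet air and 2.36, 3.13 and 5.00 CPM in control-diet ozone, without overlap. It was at 0.955, 1.38 and 2.47 and 1.96, 3.18 and 7.63 CPM on the DHA diet, with overlap, and rose 2.14-fold and 2.43-fold. Kif11 (Eg5), which pushes spindle poles apart, rose 1.82-fold (edgeR adjusted p = 0.0193) and 2.22-fold (adjusted p = 0.00142). Kif15, a motor that can help Eg5, changed more on the control diet. It went from 2.12, 3.17 and 3.77 to 4.54, 4.98 and 5.32 CPM on the control diet (0.70 ± 0.16, adjusted p = 0.00452) with no overlap. With DHA it was at 2.79, 3.35 and 4.00 CPM in air and 3.30, 3.41 and 6.51 CPM in ozone, overlapping, with a change of 0.31 ± 0.16 (adjusted p = 0.173) that was 0.13 without ozone library 1. The control-diet call ended without control-diet air libraries 1 to 3 (0.48, adjusted p = 0.104). The difference between the diets was −0.39 ± 0.23 and was not called (adjusted p = 0.888).

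Kif20a, a motor of the central spindle, was called on the DHA diet (0.98 ± 0.23, edgeR adjusted p = 0.00251) and not on the control diet (0.60 ± 0.23, adjusted p = 0.0736). All control-diet ozone values (5.09, 5.40 and 6.31 CPM) were nevertheless above all control-diet air values (2.66, 3.84 and 4.41 CPM). DHA-diet ozone values (2.62, 6.22 and 13.3 CPM) overlapped DHA-diet air (2.90, 3.65 and 4.23 CPM), since library 6 was below every air library. Without DHA-diet ozone library 1 the control-diet change was called too (adjusted p = 0.0221). The Kif20a gene overlaps the annotated spans of Brd8 and Cdc23, and reads in the shared bases cannot be told apart without a known strand setting.

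All 7 spindle assembly genes were called on both diets. The control-diet call of Ckap2l ended without control-diet air library 1, 4, 5 or 6. It also ended without control-diet ozone library 1, 2, 4, 5 or 6 or DHA-diet air library 2 or 5. Tpx2, which activates Aurora A and seeds microtubules around chromosomes, went from 2.99, 4.07 and 5.52 to 5.76, 9.11 and 12.5 CPM on the control diet. From DHA-diet air to ozone it went from 3.26, 3.73 and 5.00 to 5.54, 9.54 and 19.99 CPM. No ozone library overlapped the air libraries on either diet, and the changes were 1.13 ± 0.23 (edgeR adjusted p = 0.00153) and 1.51 ± 0.23 (adjusted p = 4.99e-05). Hmmr, a hyaluronan receptor that also binds spindle microtubules, went from 0.871, 1.70 and 2.56 CPM to 1.26, 4.27 and 10.4 CPM on the DHA diet, a wide and overlapping range, with a change of 1.46 ± 0.34. Its control-diet change of 1.09 ± 0.35 (adjusted p = 0.0338) was not called when library 1, 4 or 6 of the air group or library 1, 2, 4 or 6 of the ozone group was left out. Nusap1, which bundles spindle microtubules, changed by 1.13 ± 0.28 and 1.04 ± 0.27, and by 0.69 on the DHA diet without ozone library 1.

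The cytokinesis genes Ect2, Anln and Racgap1 rose on both diets. Ect2, the exchange factor that activates RhoA at the cleavage furrow, stood at 3.11, 4.08 and 5.60 CPM in control-diet air and 7.80, 9.95 and 13.6 CPM in control-diet ozone. With DHA its levels were 3.80, 4.61 and 5.27 CPM in air and 5.10, 10.1 and 27.9 CPM in ozone. The control-diet groups did not overlap and the DHA-diet groups did, with rises of 2.32-fold and 2.80-fold. Anln (anillin), the scaffold of the contractile ring, stood at 7.07, 12.1 and 41.3 CPM in DHA-diet ozone, where library 1 was more than 2-fold above the next. Its change of 1.15 ± 0.26 (edgeR adjusted p = 0.00210) was 0.65 without that library (adjusted p = 0.00346). Racgap1, a subunit of centralspindlin, rose 1.84-fold and 2.05-fold.

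Among genes of chromosome structure, 4 of 5 were called on both diets. Top2a (chromosome 11, 98883773 to 98915016), the topoisomerase that untangles sister chromatids, stood at 8.41, 10.6 and 14.2 CPM in control-diet air and 20.4, 27.2 and 33.6 CPM in control-diet ozone. In DHA-diet libraries its levels were 9.49, 12.3 and 12.9 CPM in air and 14.4, 27.9 and 72.9 CPM in ozone. All ozone libraries were above all air libraries on each diet, and the changes were 1.25 ± 0.25 (edgeR adjusted p = 0.00114) and 1.52 ± 0.25 (adjusted p = 8.37e-05). Mki67 (chromosome 7, 135291517 to 135318109), which encodes the proliferation marker Ki-67 that coats mitotic chromosomes, went from 9.14, 11.7 and 14.4 to 19.1, 25.3 and 29.9 CPM on the control diet. It went from 9.12, 14 and 16.2 to 12.6, 24.9 and 63.6 CPM on the DHA diet. Control-diet ranges were apart, while DHA-diet ozone library 6 lay within the air range. Its changes were 1.07 ± 0.25 (adjusted p = 0.00380) and 1.20 ± 0.24 (adjusted p = 7.61e-04), the latter 0.84 without ozone library 1 and 0.77 without libraries 1 and 2, still called.

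Condensin compacts chromosomes for division, and its subunits differed. Ncapg rose 3.31-fold on the control diet (0.361, 0.599 and 1.29 to 1.80, 2.24 and 3.03 CPM, no overlap) and 3.15-fold on the DHA diet (0.728, 0.951 and 1.25 to 0.916, 2.25 and 7.94 CPM, overlapping). Its DHA-diet log2 fold change of 1.65 ± 0.36 was 1.08 without ozone library 1, and its annotated span shares 3364 bases with Lcorl. Smc2, a core subunit of both condensins, rose less, but with a small error: 0.70 ± 0.10 (edgeR adjusted p = 3.37e-05) and 0.57 ± 0.09 (adjusted p = 1.19e-04), with no overlap on either diet. Ncaph was at 5.63, 7.37 and 8.23 CPM in control-diet air, 6.48, 9.44 and 10.2 in control-diet ozone, 7.13, 7.60 and 9.85 in DHA-diet air and 6.98, 8.18 and 13.8 CPM in DHA-diet ozone. These ranges overlapped, and its changes of 0.31 ± 0.15 and 0.23 ± 0.15 were not called (adjusted p = 0.160 and 0.275).

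Foxm1, the transcription factor that activates many G2 and mitosis genes, stood at 2.57, 3.01 and 3.77 CPM in control-diet air and 3.75, 4.06 and 7.83 CPM in control-diet ozone. Its DHA-diet levels were 2.45, 3.35 and 4.73 CPM in air and 3.14, 4.92 and 13.5 CPM in ozone. Ranges touched or overlapped on both diets, and the highest value was again in DHA-diet ozone library 1. The log2 fold change was 0.64 ± 0.28 on the control diet (edgeR adjusted p = 0.114) and 0.89 ± 0.27 on the DHA diet (adjusted p = 0.0168). Without that library the DHA-diet change was 0.52 and not called (adjusted p = 0.0914), and the control-diet change was called (adjusted p = 0.0416).

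**Figure D3:**
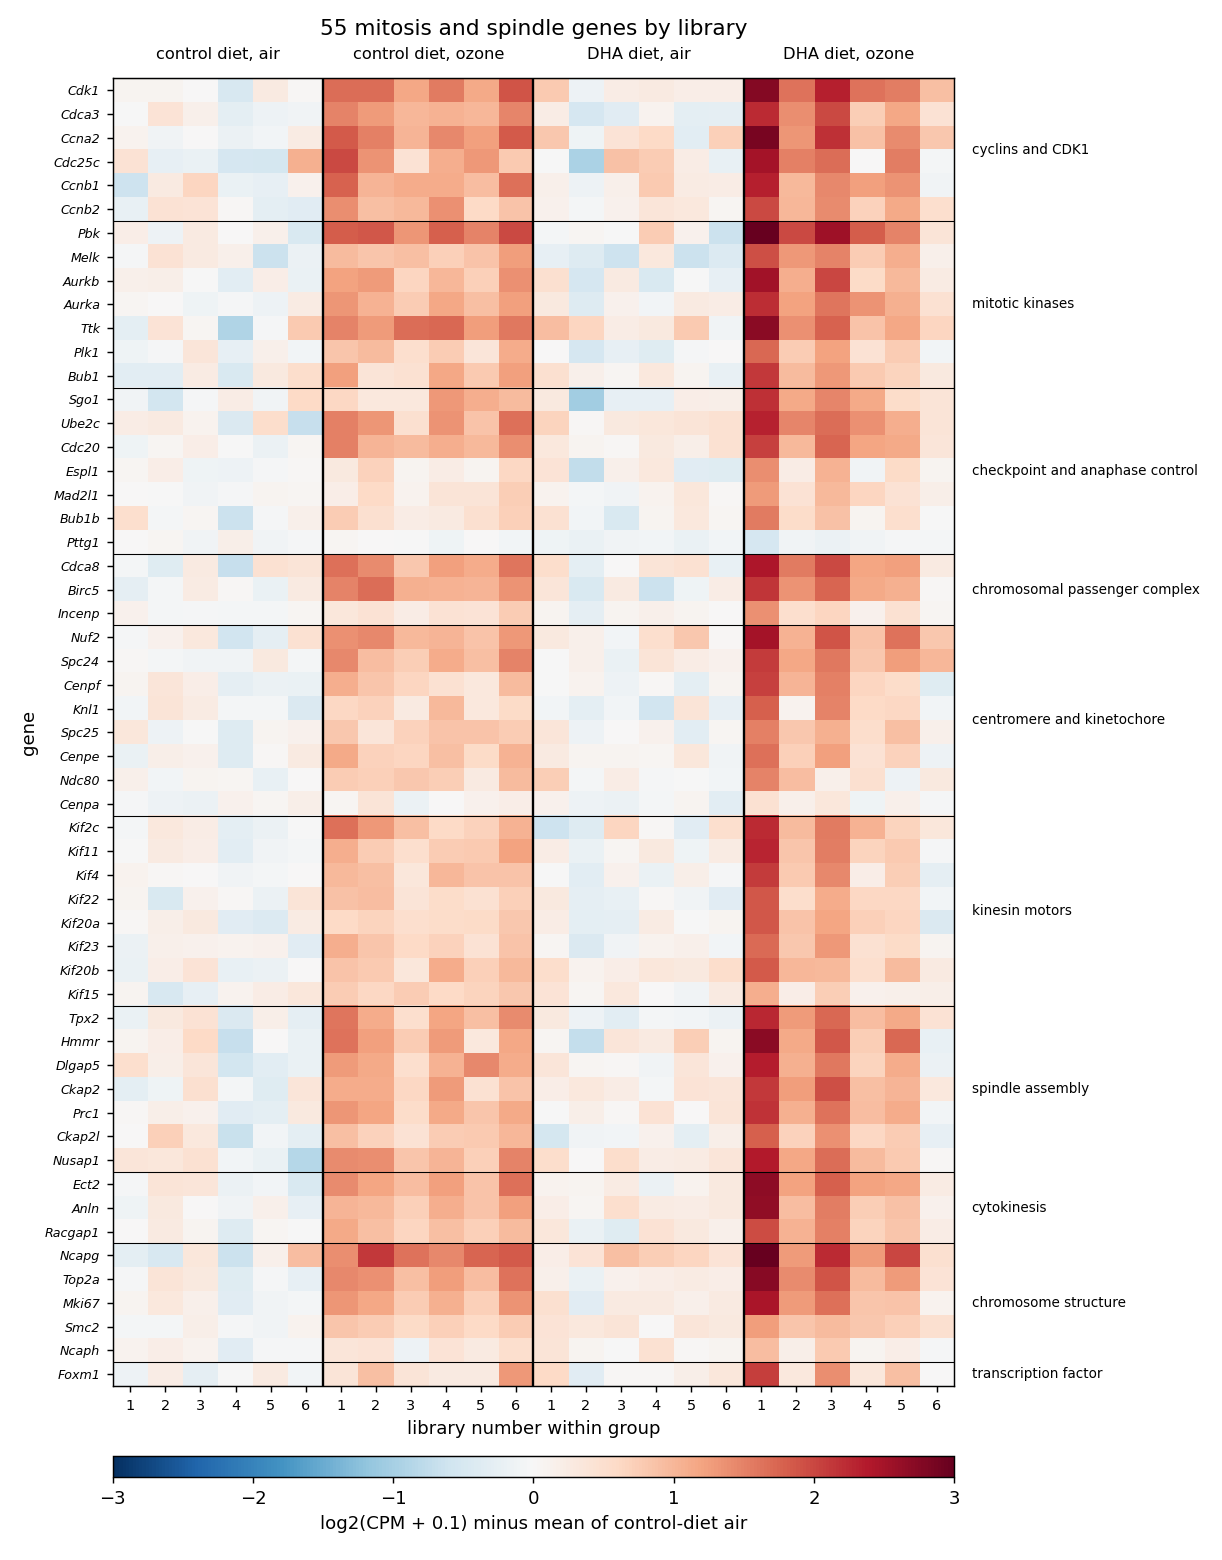
Colour shows log2(CPM + 0.1) minus the mean of the 6 control-diet air libraries for each of the 55 genes (y axis, grouped by role and ordered by DHA-diet change) in the 24 libraries (x axis, library number within group). DHA-diet ozone library 1 is the darkest red in 54 rows and library 6 is close to the air libraries, while the 6 control-diet ozone libraries are more alike.

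The groups differed in how evenly their libraries rose. On the control diet, 38 of 55 genes had all 6 ozone libraries above all 6 air libraries, where 4.5% of all genes tested did. In DHA-fed groups 9 had (Aurka, Ccnb2, Cdca3, Cdk1, Sgo1, Smc2, Spc24, Top2a and Tpx2), where 5.14% of all genes did. That count was 41 without DHA-diet ozone library 6, where 6.79% of all genes did, and remained 9 when any 1 of libraries 1 to 5 was left out instead. The median SD of the members' log2 CPM was 0.255 (air) and 0.262 (ozone) with the control diet and 0.235 (air) and 0.670 (ozone) with DHA. That last value was 0.504 without library 1, 0.552 without library 6 and 0.356 without both. Libraries 1 and 6 were picked as the extremes for these genes, so a narrower spread without them follows from that choice. Over all genes the median SD in the 4 groups was 0.150, 0.125, 0.123 and 0.157 in the same order.

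The mean log2 CPM of the 55 genes was 2.93, 2.79, 2.46, 2.74, 2.56 and 2.94 in control-diet ozone libraries 1 to 6. In DHA-diet ozone libraries 1 to 6 it was 3.85, 2.77, 3.26, 2.53, 2.72 and 1.99. Air libraries ran from 1.57 to 1.96 on the control diet and from 1.66 to 2.06 on the DHA diet. The medians of the ozone groups, 2.77 on the control diet and 2.74 on the DHA diet, were close, while DHA-diet libraries 1 and 3 were above and library 6 below every control-diet ozone library. Library 1 was above all control-diet ozone libraries for 54 of the 55 genes and library 3 for 46. Library 6 was above all DHA-diet air libraries for 10 of the 55 genes and within or below their range for 45. The other 5 DHA-diet ozone libraries exceeded all DHA-diet air libraries for 42 to 54 genes.

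**Figure D4:**
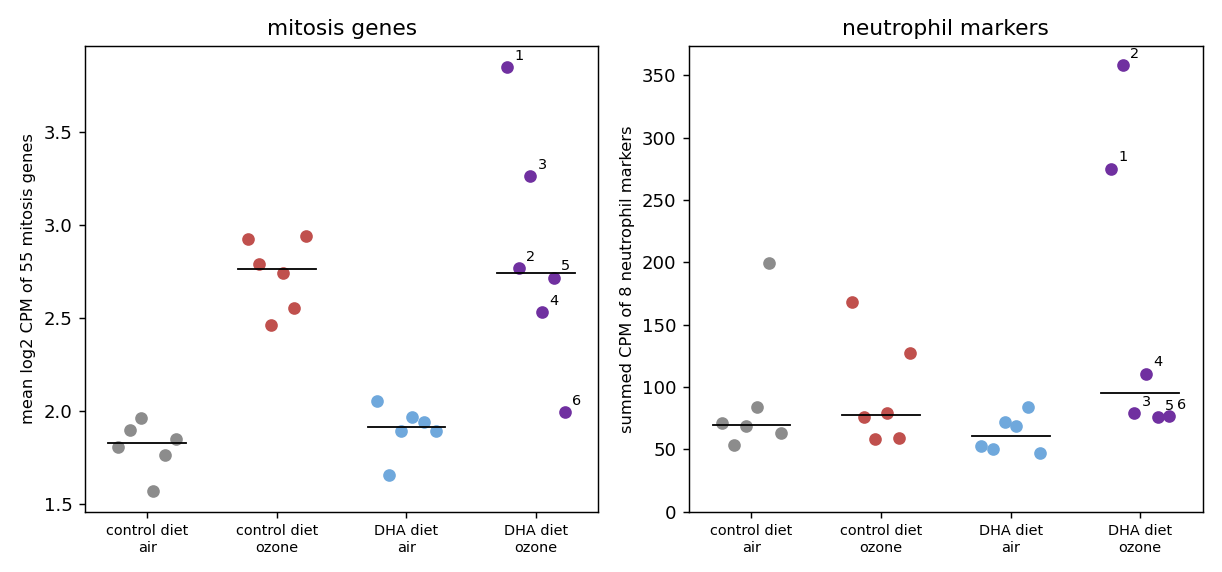
The left panel shows the mean log2 CPM of the 55 mitosis genes and the right panel the summed CPM of 8 neutrophil markers (y axes) in each of the 24 libraries by group (x axes), with the group median as a line and DHA-diet ozone libraries numbered. Within DHA-diet ozone the mitosis means run from 1.99 in library 6 to 3.85 in library 1, and the neutrophil sum is highest in library 2.

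Left out in turn, DHA-diet ozone library 1 moved the DHA-diet response most. Without it 46 genes were called higher on that diet, with a median log2 fold change of 0.84 (1.79-fold), and 9 called changes shrank by more than 1.5 times (Anln, Bub1b, Foxm1, Incenp, Kif20b, Kif4, Ncapg, Nusap1 and Ttk). Without library 6 the count was 50 and the median 1.29, and without both, an alternative chosen after seeing the data, 48 and 1.01. The control-diet count ran from 39 to 49 when 1 of the 24 libraries was left out. It fell to 31 without control-diet air libraries 1 to 3 and to 26 without control-diet air libraries 4 to 6, with medians of 1.06 and 0.82. Among the 19 calls that ended without air libraries 4 to 6 were Mki67 (0.90, adjusted p = 0.0517), Melk, Kif2c, Nusap1 and Anln.

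Markers of other cells were set beside these values. Alveolar macrophage markers summed to 333 to 429 CPM in the 12 air libraries and 471 to 644 CPM in the 12 ozone libraries. The mean log2 CPM of those that passed the filter overlapped. It was 3.47 to 3.92 in air and 3.80 to 4.15 in ozone on the control diet, and 3.79 to 3.98 and 3.85 to 4.31 on the DHA diet. After ozone 2 of 10 were called higher on the control diet and 3 of 10 on the DHA diet. Over all genes, 8.93% were called higher and 7.87% lower on the control diet, and 12.7% and 11% on the DHA diet. Neutrophil markers summed to 58.6 to 168 CPM in control-diet ozone and 75.6 to 358 CPM in DHA-diet ozone, against 53.9 to 199 and 47.0 to 84.0 CPM in air. Of 8 neutrophil markers, 1 was called higher on the control diet and 7 on the DHA diet. These counts do not show a difference between diets. After ozone 0% of all genes were called between diets, and 0% were called for the difference of ozone changes. DHA-diet ozone library 2 had the highest neutrophil sum and a mean of 2.77 for the mitosis genes. Library 1, with the highest mitosis mean, had the second highest neutrophil sum (275 CPM) and the highest alveolar macrophage sum of the 24. Its mean log2 CPM of alveolar macrophage markers was 4.15, below 4.31 in library 5 and 4.29 in library 2 of its group. Library 3 had 79.1 CPM of neutrophil markers and a mitosis mean of 3.26. Some defining genes of dividing neutrophil progenitors had group medians at or near 0: Elane and Fcnb had a median of 0 CPM in every group, and the highest median of Mpo was 0.0251 CPM. The sum of the progenitor list, led by Chil1 and Ltf, which other cells express too, was 595 to 747 CPM in air and 709 to 1225 CPM in ozone, where library 1 of the DHA diet was the highest and library 6 the lowest. The mean log2 CPM of the listed genes that passed the filter was 4.49 in DHA-diet ozone library 1, the highest of the 24. The next was 3.72, in control-diet ozone library 4. Group medians of that mean were 2.75 in air and 2.77 in ozone on the control diet, and 2.72 and 2.77 on the DHA diet. The ranges of air and ozone overlapped on both diets. Germinal centre and plasma cell markers summed to 337 to 397 CPM in the air libraries and 406 to 488 CPM in the ozone libraries, without overlap. Most of that sum was Sdc1, which epithelial cells express too and which was the 1 of 8 called higher, on both diets. Alveolar type 2 markers had median sums of 26754 CPM in air and 33337 CPM in ozone on the control diet (6 of 8 called higher) and 35044 and 35901 CPM on the DHA diet (2 of 8). Thymocyte genes Ptcra and Rag2 had medians of 0 in every group, and the 9 thymocyte markers summed to 7.78 to 13.9 CPM, lowest in DHA-diet ozone library 1. Summed erythroid precursor markers, led by the transferrin receptor Tfrc, which other growing cells also express, ran from 64.6 to 102 CPM in air and from 104 to 156 CPM in ozone, highest in DHA-diet library 1. The mean log2 CPM of that list went the other way. On the control diet it was 1.51 to 1.88 in air and 1.13 to 1.42 in ozone, without overlap. With DHA its medians were 1.72 in air and 1.51 in ozone, and the ranges overlapped. Of the erythroid markers, Tfrc was called higher on both diets and the red cell gene Slc4a1 was called lower on the control diet and Ermap lower on the DHA diet. Median sums in air and ozone on the control diet, then on the DHA diet, were 2913, 2703, 2981 and 2862 CPM for endothelial markers. Likewise T cell markers had 60.1, 52.2, 64.3 and 57.1, and B cell markers 230, 238, 258 and 234. Interstitial macrophage and monocyte markers had 705, 765, 733 and 799. Fibroblast markers had 1543, 1692, 1774 and 1790, and mesothelial markers 724, 1027, 933 and 1061. Ranges of air and ozone overlapped, except for mesothelial markers with DHA. The part of any of these cells in the rise of the mitosis genes was not tested.

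Diet alone did not change the mitosis genes by a margin the test called. In air, 0 of 55 were called higher or lower with DHA (edgeR, adjusted p under 0.05), where 0.724% of all genes were called higher and 0.427% lower. Those shares, 117 and 69 genes, depended on which control-diet air libraries were kept. Without libraries 1 to 3 they were 0 and 0 genes, and without libraries 4 to 6 they were 655 and 896. In both fits 0 of the 55 were called. Over the 55 genes the median log2 difference was 0.10, 38 were positive, and 2 had an unadjusted p under 0.05. Smc2 came closest. It stood at 10.2, 10.6 and 12.5 CPM in control-diet air and 11, 14 and 14.6 CPM in DHA-diet air, and the ranges overlapped. The difference was 0.30 ± 0.10 (adjusted p = 0.107), and it was called, at 0.0374, without DHA-diet ozone library 1. Pttg1 was lower by −0.13 ± 0.06 (adjusted p = 0.266), and Kif20b differed by 0.32 ± 0.20 (adjusted p = 0.441).

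After ozone, 0 of 55 genes were called between diets, and 0% of all genes were called higher and 0% lower, although 2260 genes of 16153 had an unadjusted p under 0.05. The members' median difference of DHA against control diet was 0.25 on the log2 scale (1.19-fold), 52 of 55 were positive, 3 had an unadjusted p under 0.05 (Pttg1, Mad2l1 and Ckap2), and the smallest adjusted p was 0.323. That direction was lost without DHA-diet ozone library 1 as long as library 6 was kept. Without library 1 the median was −0.02, with 23 positive and 32 negative. Without libraries 1 and 2 the median was −0.04, with 17 positive. Without library 6 the median was 0.39 with 52 positive, and without libraries 1 and 6 it was 0.12 with 49 positive. Ckap2, a spindle microtubule protein, was at 2.66, 3.86 and 4.72 CPM in control-diet ozone and 2.40, 4.32 and 8.67 CPM in DHA-diet ozone, overlapping, with a difference of 0.47 ± 0.23 (adjusted p = 0.352) that was 0.25 without library 1. Mad2l1 differed by 0.29 ± 0.14 and Pttg1 by −0.14 ± 0.06. At this spread between libraries no diet difference after ozone was called, which does not show that the diets act alike.

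**Figure D5:**
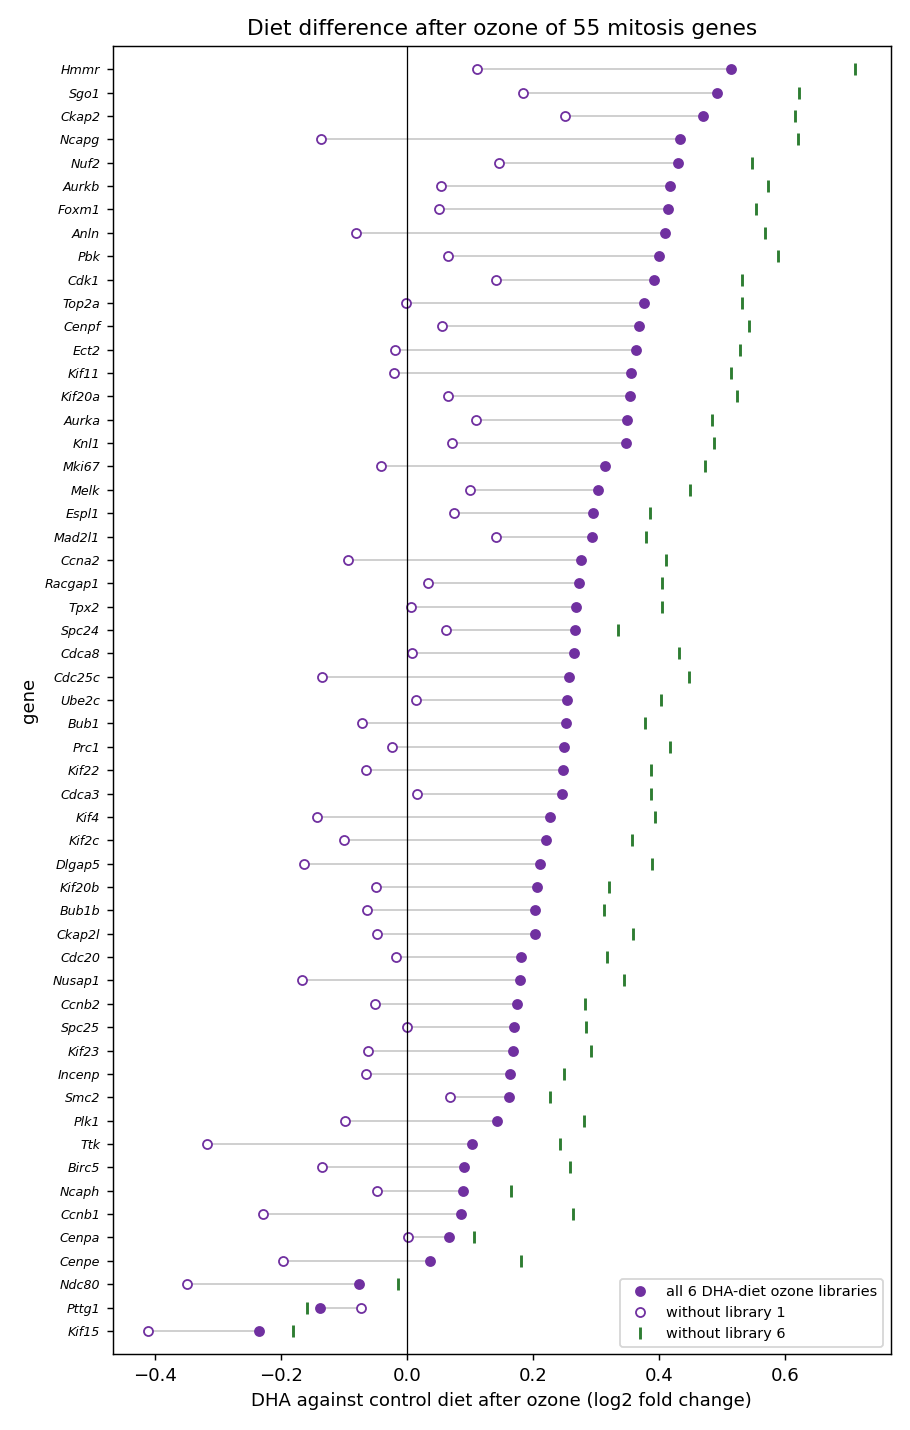
For each of the 55 genes (y axis), the log2 fold change of DHA against control diet after ozone (x axis) is shown with all 6 DHA-diet ozone libraries (filled), without library 1 (open) and without library 6 (tick). Filled points have a median of 0.25 and 52 are positive, while open points have a median of −0.02 and 23 are positive.

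The difference of the ozone changes between diets (interaction) was called for 0 of the 55 genes, where 0% of all genes were called higher and 0% lower and 988 genes had an unadjusted p under 0.05. The median was 0.15 with 41 positive, −0.11 with 17 positive without DHA-diet ozone library 1, and 0.29 with 49 positive without library 6. Beside Melk and Kif15, the third smallest p was that of Sgo1 (0.63 ± 0.43, edgeR adjusted p = 0.895).

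Other genes of the mitotic machinery, a list of 66 outside the 55, had smaller median changes. After ozone 34 were called higher on the control diet and 1 lower (Reep4, −0.20, a protein that clears membrane from chromatin), and on the DHA diet 41 and 0, with medians of 0.59 and 0.66. Among them on the DHA diet, Cenpm, a centromere protein, changed by 2.11 ± 0.33, Fam83d, a spindle protein, by 1.43 ± 0.21, Tacc3, a spindle stabiliser, by 0.84 ± 0.14 and Bub3, a checkpoint protein, by 0.27 ± 0.05. Of 16 subunits and partners of the anaphase-promoting complex, 2 were higher on the control diet, where 8.93% of all genes were, and 4 on the DHA diet, where 12.7% were, with medians of 0.02 and 0.08. These 4 were Anapc15 (0.46 ± 0.10), Anapc7 (0.16 ± 0.05), Ube2s (0.30 ± 0.08) and Cdc16 (0.14 ± 0.05). Of 19 regulators around MuvB, MYB and E2F, which switch mitotic genes off at rest and on in cycling cells, 4 were higher on each diet and 0 lower, beside the same shares over all genes. The 4 higher with DHA were E2f1 (0.41 ± 0.09), Rbl1 (0.40 ± 0.10), Mybl2 (0.62 ± 0.19) and E2f8 (0.92 ± 0.28).

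Cell cycle inhibitors and quiescence genes, a list of 16, did not move one way. After ozone on the control diet 2 were called higher (Cdkn2c and Cdkn2d) and 0 lower. In the DHA-diet comparison 4 were higher and 3 lower. The shares over all genes were 8.93% higher and 7.87% lower on the control diet and 12.7% and 11% on the DHA diet, so these counts do not set the list apart. The 3 lower were Trp53inp1, a p53 target (−0.50 ± 0.08), Ccng2, an atypical cyclin of resting cells (−0.39 ± 0.07), and Cdkn1b, which encodes the inhibitor p27 (−0.18 ± 0.05). Among the higher were Cdkn2b (0.42 ± 0.09) and Cdkn1a, which encodes p21 (0.54 ± 0.14). The median over the 16 was 0.00 on the DHA diet.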

How the data were processed

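RNA from mouse lung was sequenced in 24 libraries, 6 in each of 4 diet and exposure groups taken from the labels. Per the submitters' processing notes, Partek, STAR, HTSeq and the mm39 assembly were used. No version, annotation or strand option is given in the sources used. The authors deposited raw whole-number counts per gene, and coordinates are as deposited. The 55 members and all lists were chosen with earlier results of these data known, so counts over them are descriptions.

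Genes were kept by filterByExpr (minimum count 10, minimum total 15), TMM-scaled, and tested by edgeR 4.0.16 quasi-likelihood in R 4.3.3, with 1 mean per group and 20 residual degrees of freedom. A call needed an adjusted p (Benjamini-Hochberg over 16153 genes) under 0.05. An SE is the size of the log2 fold change over the square root of F. CPM use TMM-scaled totals, and log2 CPM a prior count of 2. Library totals of 18053493 to 26225630 counts limit precision for genes near 1 CPM.

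Named members are, per role, the 2 largest and the smallest DHA-diet ozone changes, always Mki67, Top2a, Cdk1 and Foxm1, every member not called for ozone, and the 3 smallest p in each diet comparison and the interaction. Of other lists, the 4 smallest p on the DHA diet and any that fell are named.

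Alternatives were RLE scaling, library totals, no filter, DESeq2 1.42.0, limma-voom 3.58.1 with quality weights, a replicate block, the 2 groups alone, leaving out each library, leaving out control-diet air libraries 1 to 3 or 4 to 6 and DHA-diet ozone libraries 1 and 2. Leaving out DHA-diet ozone libraries 1 and 6 was added after seeing the data. Promoters and figures used Python 3.11.15, pandas 2.3.3 and matplotlib 3.10.9. In the deposited coordinates 6 members are overlapped by another gene (Ccna2, Kif20a, Anln, Cdc20, Nusap1 and Ncapg).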

Additional observations from a re-analysis of the deposited data

Results flagged for a closer look

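In each group of 6 libraries, the CPM of 39 named members and the mean over all 55 were searched for 1 library lying far from the rest, by the 95% limit of Dixon's ratio. This picked out 13 of 160 groups, and chance picks about 1 in 20. Library 1 of DHA-diet ozone was the high library for 4 genes: Anln at 41.3 CPM (next 18.9), Incenp at 33.7 (next 20.1), Ncapg at 7.94 (next 3.34) and Kif20b at 10.5 (next 5.80). The same library was the low one for Pttg1, at 34.8 CPM against 44.1 for the next. In DHA-diet air, library 2 was low for Top2a (9.49 CPM, next 11.9) and Incenp (10.6, next 13.1), library 4 was high for Melk (3.65, next 2.46) and low for Smc2 (11, next 13.5), and library 1 was high for Tpx2 (5.00, next 3.89) and Ndc80 (3.28, next 2.28). On the control diet, ozone library 6 was high for Incenp (21.8 CPM, next 17.5) and air library 5 for Spc24 (4.73 CPM, next 3.95). The causes were not tested.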

How the results depend on the processing

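On the control diet the count of 45 members called higher was 40 to 51 under the other scalings, tools, filter and fits of the 2 groups alone, 31 without control-diet air libraries 1 to 3 and 26 without control-diet air libraries 4 to 6. For DHA-fed groups the count of 50 was 43 to 50 under these alternatives, lowest without DHA-diet ozone libraries 1 and 2. Leaving out 1 library at a time gave 39 to 49 on the control diet and 46 to 51 on the DHA diet. The DHA-against-control count of higher members in air ran from 0 to 1 when 1 library was left out, the 1 being Smc2 without DHA-diet ozone library 1, and it was 1 without DHA-diet ozone libraries 1 and 2 and 1 without libraries 1 and 6. All other counts of members were 0 in every fit. With the replicate block the counts were 44 and 50, and Mad2l1 on the control diet was the call that ended (the replicate numbers did not pair the libraries: same-numbered libraries had a mean correlation of −0.0169, and 0 of 24 were closest to their own number).

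Changes of sign were limited to uncalled values. Pttg1 on the control diet was 0.0048 without control-diet air replicate 4, and ran from −0.0506 to 0.0048 over fits without 1 library. Its DHA-diet change was 0.0082 in limma-voom, from −0.0536 to 0.0327 over fits without 1 library (highest without DHA-diet ozone replicate 1), 0.0413 without libraries 1 and 2 and 0.0295 without libraries 1 and 6. Cenpa on the control diet was −0.0226 without control-diet air libraries 1 to 3. The 2 groups alone could not be fitted for the interaction, which needs all 4. The depth leaves genes near 1 CPM, such as Cdc25c, Ncapg and Sgo1, with 4 to 206 counts per library.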

Other observations

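Outside all lists, the 8 genes whose within-group deviations over the 24 libraries were most like the members' mean were Cip2a, Mcm7, Mcm2, Clspn, Brca1, Lig1, Mcm5 and Mcm6, with Pearson r from 0.880 to 0.915 over 14530 genes of at least 1 CPM. Of these, 4 encode subunits of the MCM helicase, which unwinds DNA for replication, Clspn encodes claspin, a replication checkpoint adaptor, Lig1 a DNA ligase, Brca1 a DNA repair protein and Cip2a an inhibitor of protein phosphatase 2A. The points share libraries and depth. Without DHA-diet ozone library 1, r of these 8 genes ran from 0.811 (Mcm5) to 0.900 (Lig1). Clspn rose by 1.10 on the control diet and 1.43 on the DHA diet (edgeR quasi-likelihood, adjusted p = 0.00470 and 2.20e-04), and Mcm5 by 1.04 and 1.17.

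By the same measure 54 of the 55 members correlated positively with the members' mean, 49 of them above 0.7, with a median r of 0.849 (0.767 without DHA-diet ozone library 1). Each member is part of that mean. Ndc80 (0.527), Cenpa (0.570) and Kif15 (0.589) were the least alike of the positive ones, and Pttg1 was at −0.65 (−0.36 without library 1).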
